A study of Mus musculus with 4 samples.

Results

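The genes described here carried many listed m6A sites in the pancreas of wild type (WT) mouse embryos and were also listed in pancreas lacking Mettl3 (KO). They were chosen by their number of listed sites, 6 or more in the WT list and at least 1 in the KO list. This rule took 221 of the 5085 genes with a WT site, 4.35%, and with them 1711 of the 10514 WT sites and 512 of the 3937 KO sites. Of the 279 genes with 6 or more WT sites, 58 had no KO site and were left out. How many sites a gene had and whether it was listed in both genotypes follow from the rule and are given as description only.

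Pancreata were dissected from E15.5 embryos, either WT or lacking Mettl3 in the Pdx1-positive progenitors of the pancreas. For each genotype, fragmented RNA gave 1 MeRIP library after immunoprecipitation with an antibody to m6A and 1 input library without it. The labels call the material of all 4 libraries a pancreatic cell, and the dissected organ also holds mesenchyme, vessels and nerves in which the KO should still have Mettl3. The Cre driver, the number of embryos per library and any pooling are not stated in the labels.

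N6-methyladenosine (m6A) is a common internal mark of messenger RNA. It is placed by a writer complex of Mettl3, the catalytic subunit, with Mettl14 and adaptors such as Wtap, Virma and Zc3h13, mostly at adenosines in a short GGAC-like sequence and often in long exons and around stop codons. Reader proteins bind the mark and influence splicing, translation and decay of the transcript.

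No genome sequence was used here, so sequence could be shown only where a site reached the start of its gene. The RefSeq table of gene starts (GRCm38.p6, the same assembly as mm10) matched 173 of the 221 genes. In these genes 51 WT sites reached the first 50 bases of the transcript, and 12 of the 51 were overlapped by a KO site. The 4-base motif GGAC was searched on the sense strand in the bases shared by site and window, and 3 of the 12 overlapped sites held it. These 3 are shown, 5′ to 3′, because a motif, a WT site and a KO site meet there. Capitals mark GGAC. They lie in Ppp1r13b, a p53-binding protein (chr12:111908026-111908055, minus strand), Golim4, a Golgi membrane protein (chr3:75956920-75956949, minus strand), and Nrp1, a semaphorin and VEGF co-receptor (chr8:128359093-128359122, plus strand).
Ppp1r13b: cggcggctgagGGACggcgacgcggcacgc
Golim4: GGACttcctcccggaatcccgttggccatg
Nrp1: ccgcagacaacccGGACctcctctgggcgc
Fold enrichment of MeRIP over input at these sites was 9.57 in WT and 10.61 in KO for Ppp1r13b, 7.68 and 4.54 for Golim4, and 6.48 and 3.65 for Nrp1. GGAC stood in 5 of the 51 sites (9.80%), whereas 18.9% of all 32851 RefSeq starts held it in the same window. The reverse complement GTCC stood in 7 of the 51 sites and in 17.4% of all starts. Only 41 of the 51 sites covered the whole window, and 4 of those held GGAC. A match describes the letters and is neither a mapped m6A nor a cause.

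Fold enrichment, score and false discovery rate are the authors' own values of single listed sites. The score grows as the peak's p-value falls. WT sites of the set had a median fold enrichment of 7.96 (quartiles 6.53 and 9.63), beside 7.91 over the whole WT list. Their KO sites had a median of 5.93 (quartiles 4.97 and 7.17). The lowest false discovery rate of a KO site in the set was 46.0%, and 340 of the 512 (66.4%) had at most 50%, whereas 85.1% of the WT sites had at most 20%. Every KO site named here therefore carries a rate of at least 46.0%. With 1 library of each kind per genotype there is no replicate spread and no test between genotypes, and the depth of the libraries is unknown. Wilson intervals (95%) reflect only the counting error of sites or genes.

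The genes of the set were long. Their median length was 98.6 kb (quartiles 62.3 and 143.7), against 50.7 kb in the 1708 genes with 1 to 5 WT sites and a KO site and 37.0 kb over all genes with a WT site. Genes with 6 or more WT sites but no KO site had a median of 86.7 kb. Per 100 kb of gene the set had a median of 7.53 WT sites (quartiles 5.24 and 11.8). A gene of the set had a median of 7 WT sites, with 92 genes at exactly 6, 96 at 7 to 9 and 33 at 10 or more. KO sites numbered 1 in 85 genes, 2 in 60 and 3 or more in 76, with a highest count of 9. Just outside the rule lay 93 genes with 5 WT sites and a KO site, in which 18.9% of WT sites were overlapped, beside 16.3% in the 92 genes with exactly 6.

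Most genes of the set had a place that was listed in both genotypes. A WT and a KO site overlapped in 165 of the 221 genes (74.7%), beside 20.5% of all 5085 genes with a WT site. Only 1929 of the 5085 also had a KO site, which the rule gives to every gene of the set. Among genes with a KO site, the share with an overlap was 51.4% for 1 to 5 WT sites and 67.7% for 5. Of the WT sites, 267 of 1711 were overlapped by a KO site, 15.6% (Wilson 14.0 to 17.4), beside 12.2% of the whole WT list. Of the KO sites, 266 of 512 were overlapped by a WT site, 52.0% (47.6 to 56.3), beside 32.6% of the whole KO list. The rule asked for many WT sites and a KO site in the same gene, which bears on all of these shares. In the genes with 1 to 5 WT sites and a KO site the shares were 28.2% of WT sites (26.7 to 29.7) and 41.1% of KO sites (39.2 to 43.0). These genes had 0.685 KO sites per WT site and the set had 0.299.

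Where lists overlapped, they mostly gave the same interval. Of the 267 overlapping pairs, 241 (90.3%) had identical starts and ends, and of the 214 pairs whose WT site was under 300 bp, 211 did. The median fold enrichment in these pairs was 7.97 in WT and 5.72 in KO. A higher WT value at the shared places of a gene is therefore not read as a trait of that gene. A single shared place was the most frequent outcome: 101 had 1 overlapped WT site, 38 had 2, 19 had 3, 7 had 4 or more, and 56 had none. In 77 genes every KO site lay on a WT site. The 7 genes with 4 or more overlapped WT sites were Utrn, Ncor1, Syne2, Akap9, Fn1, Huwe1 and Cdc73.

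**Figure D1:**
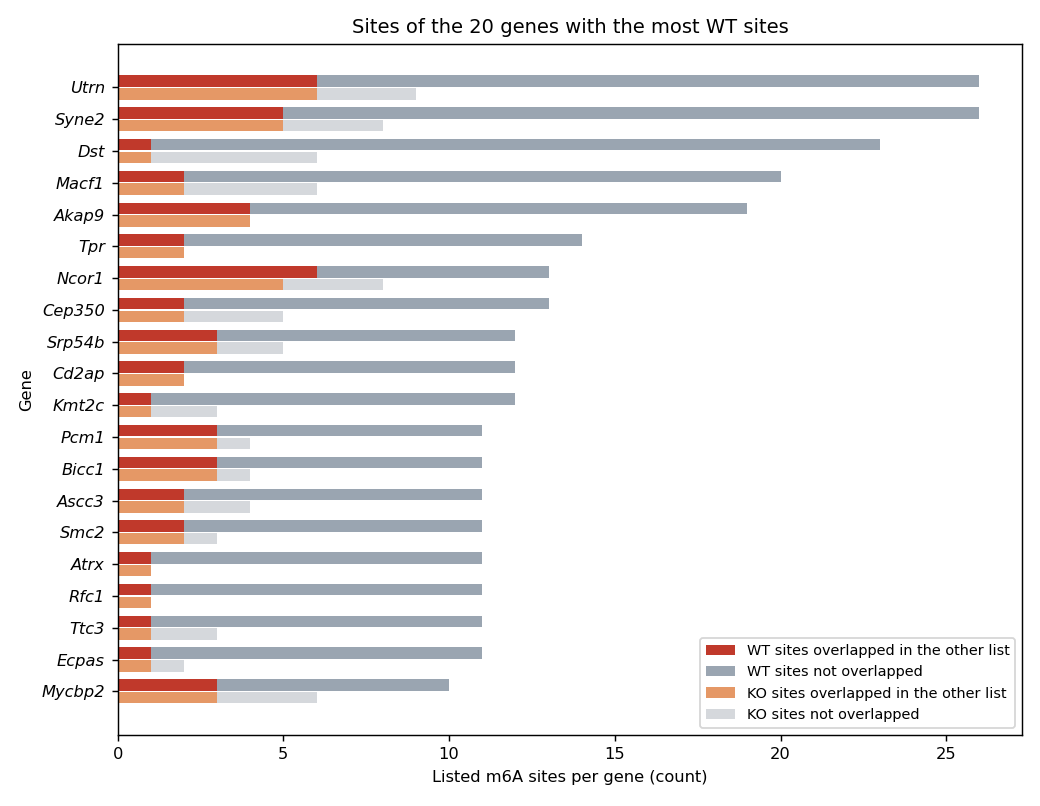
Listed m6A sites per gene (count, horizontal axis) in the 20 genes of the set with the most WT sites, with 1 bar for WT and 1 for KO. Darker segments are sites overlapped by a site of the other list. Utrn and Syne2 lead with 26 WT sites each, and in Akap9, Tpr, Cd2ap, Atrx and Rfc1 every KO site lies on a WT site.

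The longest site series belonged to giant proteins that link the cytoskeleton to membranes and the nucleus. Utrn, which encodes utrophin, the dystrophin relative that ties actin to the cell membrane, had 26 WT sites over 362 kb with fold enrichments from 4.71 to 15.0. Its 9 KO sites ran from 4.32 to 7.41, and 6 of them lay on WT sites. In 5 of these 6 places WT had the higher value, for example 11.6 against 5.71 at chr10:12401311-12401403 and 10.5 against 4.49 at chr10:12538041-12538213. At chr10:12720819-12720942 the values were 4.94 in WT and 5.28 in KO. The strongest WT site of Utrn, 15.0 at chr10:12658496-12658671, was not overlapped.

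Syne2 encodes nesprin-2, which anchors the nucleus to the cytoskeleton. It also had 26 WT sites, from 4.35 to 19.4 over 250 kb, and 8 KO sites, 5 of them on WT sites. Its highest WT site was among those listed in both genotypes, with 19.4 in WT and 9.36 in KO at chr12:75989074-75989256. Its first listed site had 7.70 and 7.17, and the other 3 shared places had 8.48 and 7.34, 8.22 and 6.43, and 11.9 and 8.19. WT values thus exceeded KO values at all 5 shared places of Syne2, the same order as in the medians over all pairs of the set (7.97 and 5.72).

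Related giants shared fewer places. Dst (dystonin, a linker of filament systems) had 23 WT and 6 KO sites with 1 shared place, at 9.05 in WT and 5.09 in KO. Macf1 (a linker of microtubules and actin) had 20 and 6 with 2 shared places, at 8.11 and 5.16 and at 5.25 and 3.66. Over the 5 giant spectrin repeat genes of the set (Utrn, Syne2, Dst, Macf1 and Sptan1), 15 of 101 WT sites were overlapped, 14.9%, close to the 15.6% of the whole set. This family, like the other families called so here, was picked after the genes of the set had been seen.

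Genes for centrosome proteins, which organise microtubules, were also frequent among the members. Of the 15 such genes with a WT site 9 were in the set (60%, beside 4.35% of all genes), a family again picked after seeing membership. Of the 90 WT sites of these 9 genes, 13 were overlapped (14.4%, beside 15.6% over the set). Akap9, a scaffold of the centrosome and Golgi, had 19 WT sites from 4.45 to 10.5, and all 4 of its KO sites lay on WT sites. The 4 places had 6.83 in WT and 5.45 in KO, 7.01 and 5.67, 5.29 and 3.86, and 9.78 and 5.98. Its strongest WT site, 10.5, was not among them. Pcm1, a centriolar satellite protein, shared 3 of 11 WT sites. Ckap5, a microtubule polymerase, shared none: its 10 WT sites ranged from 4.20 to 17.8 and its single KO site of 8.01 lay elsewhere in the gene.

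**Figure D2:**
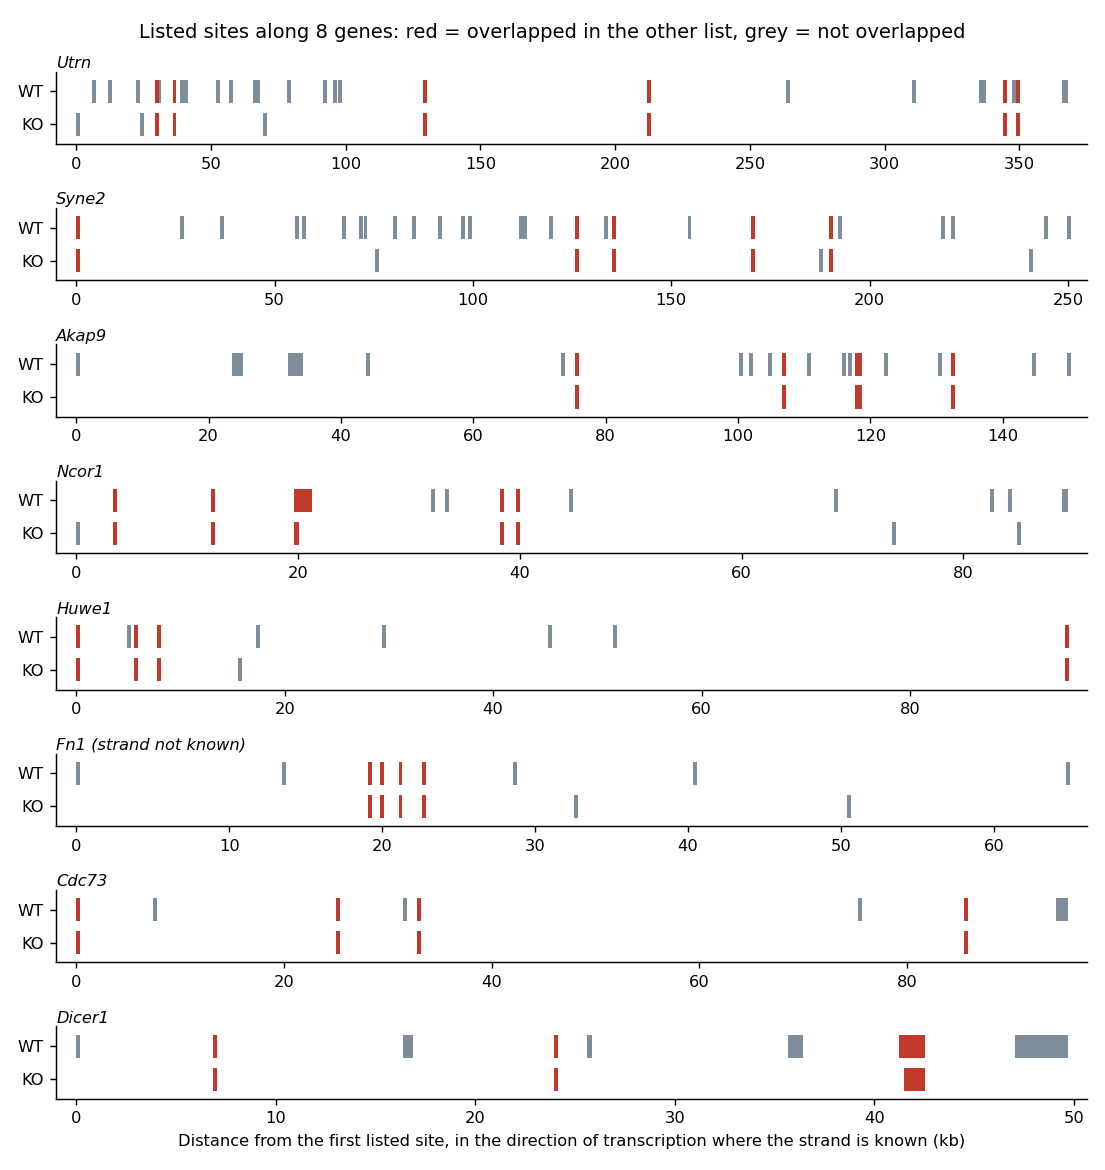
Listed WT and KO sites along 8 genes of the set, each on its own axis in kb from the first listed site and in the direction of transcription where the strand is known. Red sites are overlapped in the other list and grey sites are not; widths below 0.4% of the axis were drawn at that width. The shared places of Fn1 lie side by side, whereas those of Akap9 and Dicer1 are apart.

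Chromatin regulators, a list of genes that pack, mark or remodel DNA, held 25 of the members. They were 29.8% of the 84 chromatin genes with a WT site, beside 4.35% of all genes. Of the 25, 16 had a shared place (74.7% of genes over the set). Of the 210 WT sites of the 25, 29 were overlapped (13.8%, 9.79 to 19.1, which holds the 15.6% of the set). Ncor1, the corepressor that recruits histone deacetylases to nuclear receptors, stood out with 6 of 13 WT sites overlapped. Its KO values lay close to WT at 2 places, 5.73 against 5.72 and 7.58 against 7.41, and were above WT at a 3rd place with 5.10 against 4.59. At another place WT had 7.89 and KO 4.33. The last shared place was 1 KO site of 6.71 that covered 2 WT sites of 11.2 and 6.70, which lay only 25 bp apart. In the direction of transcription the 6 overlapped sites of Ncor1 were its first 4 and the 7th and 8th of 13.

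Subunits of chromatin-remodelling and chromosome-structure complexes recurred in the set. The SWI/SNF and ISWI family, picked after seeing membership, had 8 of 18 genes in the set (44.4%, beside 4.35% of all genes). A shared place was present in 7 of the 8 (74.7% of genes over the set). Smarca5, the ISWI ATPase, had 7 WT sites and shared 3 neighbouring places, at 13.3 in WT and 4.94 in KO, 10.6 and 5.01, and 10.7 and 7.74. The family of SMC proteins and cohesin partners had 9 of 15 genes in the set (60%). Of their 76 WT sites, 13 were overlapped (17.1%, beside 15.6% over the set). Rad21, the cleavable cohesin subunit, had 9 WT sites within 15.6 kb and 3 KO sites, all shared. Its places had 6.29 and 5.62, 4.64 and 7.89, and 8.35 and 4.16, so KO was above WT at the middle place, whose KO false discovery rate was 100%. Smc5, part of the SMC5/6 genome maintenance complex, shared 3 of 8 WT sites.

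The chromodomain helicases, remodellers named Chd, had few KO sites, and those lay at places without a WT site. Chd1, Chd2, Chd6 and Chd9 were in the set, 4 of the 8 Chd genes with a WT site (50%, beside 4.35% of all genes). Of the 31 WT sites of these members, 0 were overlapped (Wilson up to 11%), beside 15.6% over the set. Their KO sites numbered 5, so few WT sites could have been overlapped. Chd9 had 10 WT sites up to 17.6 and a single KO site of 7.21. The 2 DNA topoisomerase II genes, Top2a and Top2b, which untangle DNA strands, had 0 of 13 WT sites overlapped (Wilson up to 22.8%, which holds the 15.6% of the set), and their 3 KO sites lay elsewhere. Whether these families differ from the set was not tested.

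Ubiquitin ligases and deubiquitinases, which add or remove ubiquitin and so set protein stability, held 12 members of 60 genes with a WT site (20%, beside 4.35% of all genes). Of the 12, 10 had a shared place (74.7% of genes over the set). Of the 95 WT sites of the 12, 20 were overlapped (21.1%, 14.1 to 30.3, which holds the 15.6% of the set). Huwe1, a giant HECT ligase, shared 4 of 9 WT sites, at 7.62 in WT and 4.19 in KO, 8.06 and 4.28, 10.9 and 5.39, and 6.53 and 6.07. All 4 KO values were below their WT values, the order also of the medians over all pairs, and its strongest WT site of 14.0 was not shared. Herc1, another giant ligase, had 8 KO sites beside 9 WT sites and shared 3. At its last WT site Herc1 had 13.1 in WT and 9.85 in KO, the latter with a false discovery rate of 100%. Birc6, an inhibitor of apoptosis with ligase activity, shared 3 of 9. Usp34, a deubiquitinase, had 10 WT sites from 7.30 to 15.4 and no shared place.

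Extracellular matrix genes formed a compact group. Of the 32 with a WT site 9 were in the set (28.1%, beside 4.35% of all genes): Col14a1, Col18a1, Col4a1, Col6a3, Fbn1, Fn1, Lama4, Lamb1 and Postn. A shared place was present in 7 of the 9 (74.7% of genes over the set), and 13 of their 64 WT sites were overlapped (20.3%, 12.3 to 31.7). Such genes are characteristic of mesenchymal and vascular cells. Col6a3, Fbn1, Fn1 and Postn, 4 of the 9, were also the only members from the mesenchyme identity list. That list had 22 genes with a WT site, so its share was 18.2%, beside 4.35% of all genes. The 29 WT sites of these 4 genes, already counted among the 64, included 7 overlapped ones (24.1%, 12.2 to 42.1), 4 of them in Fn1. This interval and that of the 64 sites both hold the 15.6% of the set. The part that cell types outside the Pdx1 lineage have in these sites was not tested, and in whole pancreas fewer cells of a type and less RNA per cell cannot be told apart.

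Fn1 encodes fibronectin, a matrix glycoprotein that binds integrins. It had 9 WT sites from 5.48 to 10.1 and 6 KO sites from 5.62 to 8.04. The 4 shared places were neighbours among its listed sites, between chr1:71605885-71606040 and chr1:71609413-71609682. They had 7.32 in WT and 5.83 in KO, 8.98 and 5.62, 7.38 and 6.80, and 8.54 and 6.40. KO was below WT at each of the 4 places, the order also of the medians over all pairs. None of the other 5 WT sites of Fn1 had a KO counterpart.

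Fbn1, which encodes fibrillin-1 of elastic microfibrils, was the only member with more KO than WT sites, 8 against 6. A single place was shared, with 9.48 in WT and 6.98 in KO, and the other 7 KO sites did not meet a WT site. Lama4, a laminin chain of vessel basement membranes, shared 3 of 9 WT sites, at 6.21 and 6.29, 6.39 and 5.79, and 8.97 and 6.64. Lamb1, a widely expressed laminin chain, shared 2 of 6. The members with the laminin name had shared places in 5 of 15 WT sites, 33.3% (15.2 to 58.3), and the 4 collagen members in 2 of 27, 7.41% (2.06 to 23.4). Both intervals hold the 15.6% of the set.

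Genes for RNA handling and translation made up smaller groups. The mRNA processing and decay list had 7 of 50 genes in the set (14%, beside 4.35% of all genes). A shared place was present in 6 of the 7 (74.7% of genes over the set). Dicer1, the nuclease that makes mature microRNAs, had 8 WT sites, and its 3 KO sites all lay on WT sites. They had 5.95 in WT and 4.74 in KO, 5.67 and 6.15, and 8.61 and 4.90, while its highest WT site (13.9), 2616 bp long and last in the direction of transcription, was not shared. Cdc73, a subunit of the Paf1 transcription elongation complex, shared 4 of 8 WT sites. Its values were 10.12 in WT and 10.04 in KO, 13.1 and 6.47, 7.67 and 7.06, and 7.87 and 9.69.

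Subunits of translation initiation factors (eIF3 and eIF4) and cytosolic aminoacyl-tRNA synthetases were families picked after seeing membership. Each had 4 genes in the set, of 14 with a WT site (28.6%, beside 4.35% of all genes). All 4 initiation factor genes had a shared place, beside 74.7% of genes over the set. They shared 8 of 25 WT sites (32.0%, 17.2 to 51.6), beside 15.6% over the set. Whether either family differs from the set was not tested. Eif3l shared 3 of 6 WT sites, with 6.38 in WT and 7.12 in KO, 4.66 and 4.85, and 12.4 and 4.07. The synthetases, which load amino acids onto tRNA, shared 7 of 26 WT sites, none of them in Eprs. This was 26.9% (13.7 to 46.1), an interval that holds the 15.6% of the set. Dars, for aspartate, shared 3 of 6, the one at its start at 9.64 in WT and 9.27 in KO. Kars, for lysine, also shared 3 of 6, with KO values of 3.22 to 3.94 that were among the low ones of the set. Over all their WT-listed genes, most of them outside the set, these families had median lengths of 21.8 kb and 27.0 kb. The members themselves ran from 19.2 kb (Eif3l) to 215.3 kb (Eif4g3) and from 17.9 kb (Kars) to 66.9 kb (Eprs).

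Of the signalling lists, the kinase and PI3K-mTOR list had 6 of 59 genes in the set (10.2%, beside 4.35% of all genes). Of their 40 WT sites 2 were overlapped (5%, 1.38 to 16.5, which holds the 15.6% of the set). Their KO sites numbered 7, so few WT sites could have been overlapped. The Notch, Wnt, Hippo and TGF-beta list had 1 of 49 (2.04%), Adam10, the protease that cleaves Notch receptors. Another 3 of the 49 had 6 or more WT sites but no KO site, so the low share does not mean few heavily marked genes. Nrp1 shared 3 of 6 sites, among them the start shown above and an inner site with 9.87 in WT and 9.53 in KO.

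Genes of the pancreatic epithelium itself contributed 3 of the 38 with a WT site (7.89%, beside 4.35% of all genes). Bicc1, an RNA-binding regulator of duct and tubule formation, had 11 WT sites from 5.02 to 12.0 and shared 3, at 10 in WT and 6.64 in KO, 8.20 and 5.40, and 9.48 and 5.46. Prom1, a membrane protein of progenitor and duct cells, shared 1 of 6, at 6.11 and 6.86. Scg3, a granule protein of endocrine cells, shared its only KO site, at 5.25 in WT and 5.38 in KO. KO was therefore below WT at the 3 shared places of Bicc1, as in the medians over all pairs, and slightly above at those of Prom1 and Scg3. Of the defining cell type markers checked, a WT site was listed for 1 of 5 of endothelium, 3 of 5 of mesenchyme, 1 of 5 of neural and glial cells, 1 of 5 of epithelium and 0 of 4 of blood. These markers were too few with a site for their absence from the set to say anything about cell types.

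Of 17 genes of the m6A machinery with a WT site, 2 were members (11.8%, beside 4.35% of all genes), both adaptors of the writer complex. Virma had 6 WT sites and 2 KO sites, and its strongest WT site (12.4, at chr4:11549545-11550003) was the shared one, with 8.44 in KO. Zc3h13 had 6 WT sites from 4.66 to 8.51, and its only KO site, 8.20, was not overlapped.

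**Figure D3:**
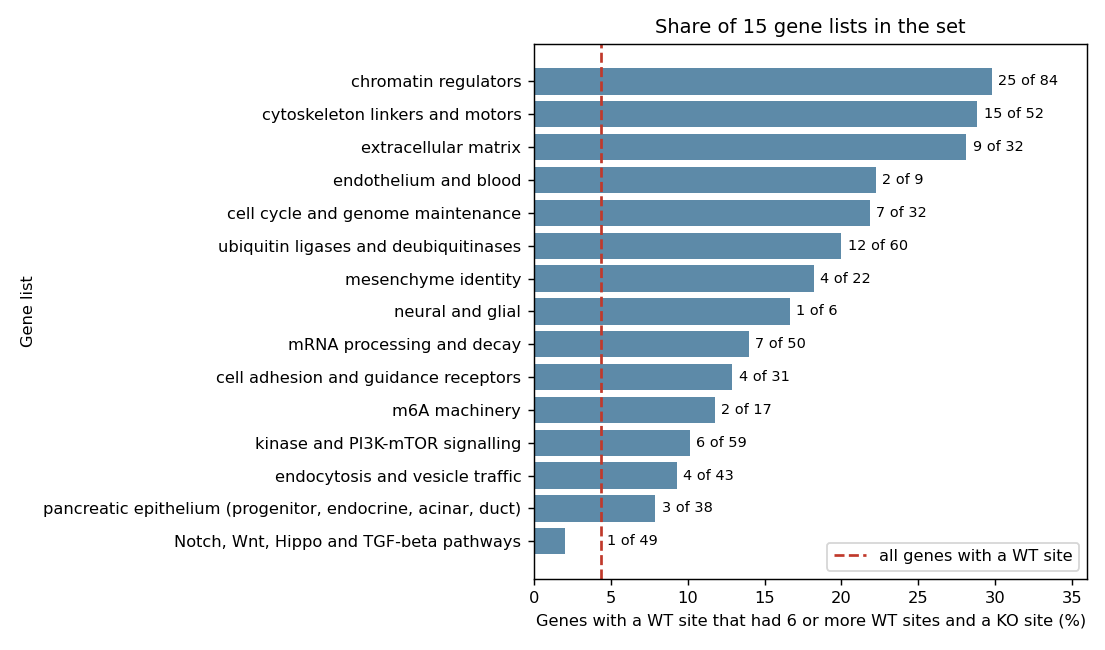
Share of the WT-listed genes of 15 gene lists that belonged to the set (percent), with the counts beside the bars and a dashed line at 4.35%, the share over all genes with a WT site. Chromatin regulators, cytoskeleton linkers and motors and extracellular matrix genes are at 28.1% to 29.8%, and the Notch, Wnt, Hippo and TGF-beta list is at 2.04%. Genes with 6 or more WT sites but no KO site, 3 of them in that last list, are not counted as members.

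Name patterns and the pathway terms in the authors' files were counted in the same way. Beside the 4.35% of all genes, 0 of 64 solute carriers, 0 of 32 Tmem genes, 0 of 26 F-box and cullin genes and 1 of 152 Zfp zinc finger genes were members. Of the 1903 WT-listed genes with a KEGG pathway in the files, 102 (5.36%) were members. Focal adhesion had 14 of 81, Regulation of actin cytoskeleton 11 of 80, ECM-receptor interaction 6 of 22 and Lysine degradation 5 of 23, whereas Metabolic pathways had 5 of 346. Ubiquitin mediated proteolysis had 6 of 69. A shared place was present in all 6 (74.7% of genes over the set), and 13 of 49 WT sites were overlapped (15.6% over the set). Median gene lengths were 85.0 kb for chromatin, 94.8 kb for matrix and 126.5 kb for cytoskeleton genes, beside 31.1 kb for solute carriers and 21.5 kb for Zfp genes. The part of gene length in these shares was not tested.

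Spacing along the gene was broad. The 1490 distances between neighbouring WT sites had a median of 5534 bp (quartiles 2257 and 12693), and 473 (31.7%) were over 10 kb. Only 101 (6.78%) were under 1000 bp and 5 under 200 bp. Distances in Gm14308 and Srp54b are included, although their sites cannot be told apart from those of related genes. In genes with 2 to 5 WT sites and a KO site the 1909 distances had a median of 8415 bp (quartiles 2962 and 21081), and 5.24% were under 1000 bp. Both groups of genes were formed by their number of WT sites, which bears on these distances. The closer spacing in the set is therefore given as description only. The RNA had been broken to about 200 nt, so nearly all neighbours lay further apart in the genome than a fragment is long. Distances between exons are unknown here, since exon annotation was not used.

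**Figure D4:**
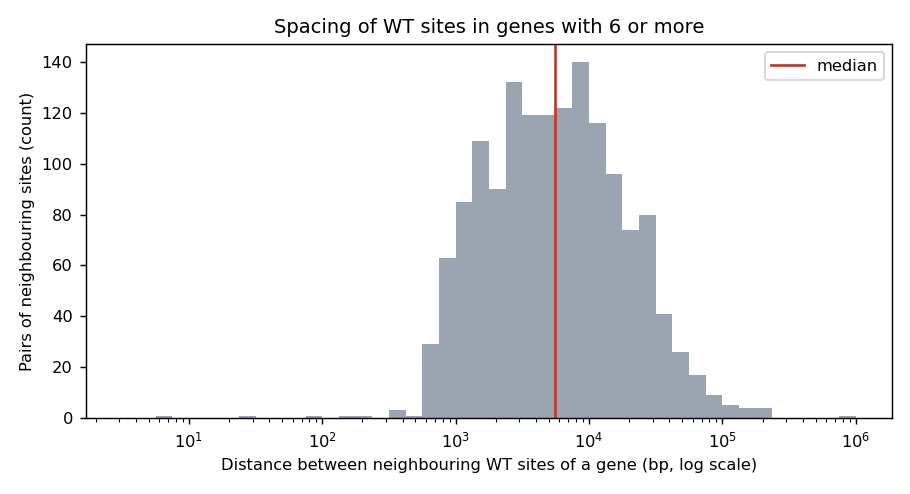
Distances between neighbouring WT sites of a gene (bp, logarithmic axis) against the number of neighbouring pairs, over 1490 pairs in 221 genes, with the median of 5534 bp as a red line. The distances run from 7 bp to 815 kb around a single broad peak. The largest is in Gm14308, whose sites cannot be told apart from those of related genes.

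Listed neighbours often had other numbered peaks between them. The peak numbers of the files rise along the chromosomes, and 659 of the 1490 neighbours (44.2%) had consecutive numbers, so that no other numbered WT peak lay between them. Within a member's outer WT sites a median of 40.0% of the WT peak numbers were listed (quartiles 28.6% and 54.5%), and in 5 genes all of them were. The files do not say what the unlisted numbers stand for. A place without a listed KO site may therefore hold an unlisted peak. Between the outermost shared places of the 64 genes with at least 2, the WT list ran through 756 numbers and the KO list through 654. In 33 of these genes WT had more numbers, in 13 KO had more and in 18 they were equal. In Utrn the numbers were 73 in WT and 65 in KO, in Syne2 67 and 59, in Fn1 3 and 3, and in Akap9 19 and 9.

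Among genes with several overlapped WT sites, about as many had overlapped neighbours as had none. Of the 64 genes with 2 or more overlapped WT sites, 34 had at least 1 pair of overlapped neighbours and 30 had none. Over all neighbours 41 were both overlapped, 383 had 1 overlapped site and 1066 had none. The 246 KO sites without a WT overlap were spread over 144 genes. The closest lay 213 bp from a WT site, 15 lay within 1000 bp, and the median distance was 5829.5 bp (quartiles 2849 and 11448). Of the 246, 171 fell between the outer WT sites of their gene and 75 outside.

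Overlapped shares by place along the gene had intervals that mostly overlapped, and no difference by place was tested. In the 173 genes of known strand the first WT site was overlapped in 34 genes, 19.7% (14.4 to 26.2), the second in 37, 21.4% (15.9 to 28.1), and the third in 29, 16.8% (11.9 to 23.0). From the other end the last site was overlapped in 25 genes, 14.5% (9.98 to 20.5), the second to last in 18, 10.4% (6.68 to 15.8), and the third to last in 26, 15.0% (10.5 to 21.1). Sites in the upstream part of the order were overlapped in 116 of 647 cases, 17.9% (15.2 to 21.1), and in the downstream part in 93 of 647, 14.4% (11.9 to 17.3), with overlapping intervals. The intervals of the first and last sites overlap each other and hold the 15.7% of inner sites. Last sites were wider, with a median of 288 bp against 158 bp for inner sites.

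Recurring sites stood higher by score than by fold enrichment. The WT site with the highest score of its gene was overlapped in 54 of 221 genes, 24.4% (19.2 to 30.5), and sites of rank 2 to 6 in 10.9% to 16.3%. Ranked by fold enrichment, the top site was overlapped in 16.7% (12.4 to 22.2) and lower ranks in 14.0% to 17.6%. Overlapped and other WT sites had almost equal median folds, 7.97 and 7.96, and median scores of 100.7 and 86.0. In KO the overlapped sites had the lower median fold, 5.71 against 6.16, and the higher median score, 74.2 against 66.3. Transcript levels are not part of the lists.

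**Figure D5:**
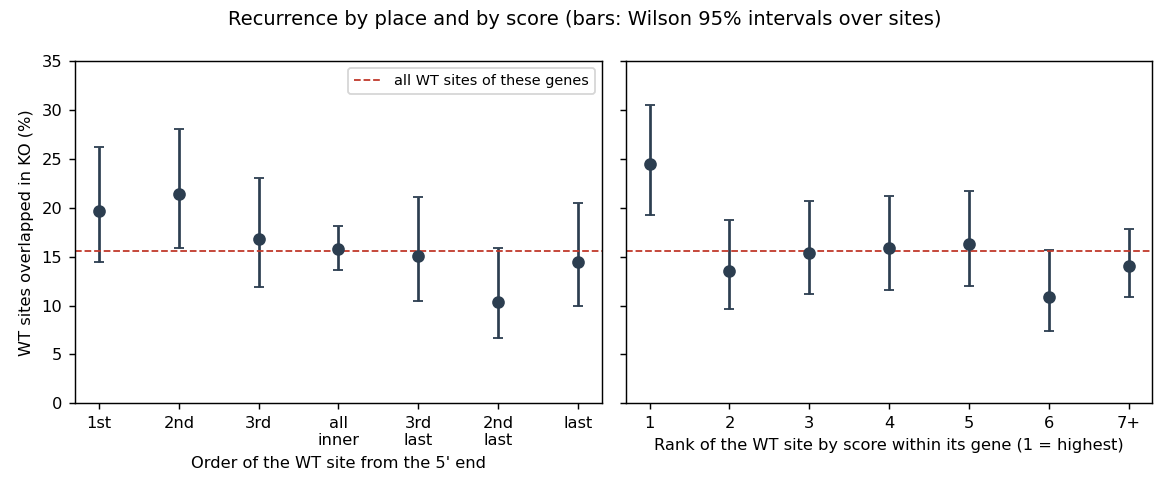
Share of WT sites overlapped in KO (percent) by order along 173 genes of known strand (left) and by rank of score within 221 genes (right), with Wilson 95% intervals over sites and a dashed line at 15.6%, the share over all WT sites of the set. The site of highest score stands at 24.4%, and its interval lies above the line.

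Some shared places had high KO values. Among overlapping sites the highest KO fold enrichments, both 14.2, were in Dmbt1, a scavenger receptor-like protein of epithelia, with 12.7 in WT, and in Kdm4c, a histone demethylase, with 10.2 in WT. The site of Dmbt1 is 32 bp wide, and its KO false discovery rate was 76.8%. Togaram1, a protein of cilia, had 6.81 in WT and 11.2 in KO, Oxct1, the enzyme that starts ketone body use, had 11.9 and 10.8 at its last site, and Afdn, the junction protein afadin, had 11.1 and 10.8. These sites were taken for their KO values, so the order of WT and KO in them is no result.

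Width and identity limit single sites in some genes. WT sites of the set were narrow, with a median of 163 bp against 203 bp over the whole list, and 6.14% were 1000 bp or longer against 16.8%. The overlapped share rose little with width, from 11.9% (8.52 to 16.3) up to 100 bp to 17.9% (13.7 to 23.0) at 200 to 300 bp. In 3 genes, Gm14308, Srp54b and Gon4l, the WT sites spanned over 10 kb more than the annotated gene. Srp54b, a signal recognition particle gene with close copies nearby, had 12 WT sites over 124 kb and an annotated length of 34.1 kb, and Gm14308 had 7 over 1203 kb, so sites of these genes cannot be told apart from those of related genes.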

How the data were processed

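RNA from E15.5 pancreas was measured by MeRIP-seq with 1 MeRIP and 1 input library per genotype. The submitters' processing notes name cutadapt 1.9.3, HISAT2 2.0.4 and the build mm10. Peak names begin with MACS, per the file headers. Neither its version nor the handling of duplicate reads is given in the sources used here, nor is the selection of the mRNA sites from all peaks. The score, per the file headers, is the peak's p-value as a negative log10 value times 10. The authors' fold enrichment was taken as the ratio of MeRIP to the input of the same genotype, an assumption. Values of the authors' false discovery rate reach 100 and were taken as percent.

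Genes were taken by gene identifier, or by name where it was empty, and 9 of the 221 symbols were updated through RefSeq tables (218 genes matched by identifier, 3 by accession). Starts were read as 0-based and are printed 1-based. Sites were called shared at an overlap of 1 bp or more, without regard to strand. Order along a gene used the RefSeq strand. Distances were taken from the end of a site to the start of the next. A Wilson interval was given for each share, and no test was run. The overlap code was tested on simulated data. Named genes were those with the most WT sites (10), overlapping pairs (10), KO sites (5) or WT sites without a pair (5), the highest overlapped share (5), the highest KO fold in a pair (5) and up to 4 of each list with at least 3 members, which made 72 genes. Members named outside it, such as Sptan1 and Kars, were picked with their values in view. The members, the lists and the families were chosen with earlier results of these data known. Results of 1 list are not reported here. Of the tools, Python 3.11.15, pandas 2.3.3 and numpy 2.4.6 were used.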

Additional observations from a re-analysis of the deposited data

How the results depend on the processing

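No paired analysis was possible because each genotype has 1 MeRIP and 1 input library and the lists carry no replicate numbers. Over 11 alternatives, 45 of 60 summary values stayed within their interval or within 1.5 times. The share of WT sites overlapped in KO, 15.6%, was 12.9% with sites of at least 5-fold enrichment, 11.2% with a false discovery rate of at most 50% and 25% with the WT list reduced by score to as many sites as KO has. The share of KO sites overlapped, 52.0%, was 47.1% for identical intervals, 42.7% with the reduced WT list and 57.0% with a minimum of 8 WT sites. Genes with an overlapping pair, 165, numbered 82 with the upper 75% of each list by score, 18 with the reduced list and 72 with the minimum of 8, in sets of 107, 20 and 84 genes. The median distance of 5534 bp became 6290 bp and 6721.5 bp with the upper 75% and the reduced list. The overlapped share at the last site, 14.5%, was 5.88% with the reduced list, an alternative added after seeing the data. That share rests on at most the 20 genes of the reduced set, so very few sites decide it. All of these except the rule of identical intervals use fewer sites or genes by construction. For the 72 named genes, 405 of 469 values were within 1.5 times the main count and 64 were not.

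The lists limit all of this in the same way. They hold no read counts, so depth, transcript level and called but unlisted peaks are unknown, and the absence of a KO site is no measure of lost methylation. Exon annotation was not used, so whether the interval ends are those of peaks or exons was not tested.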
